A study of Mus musculus with 18 samples.

Results

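The genes described here are 9 that carry ions, phosphate and water across the alveolar epithelium. They are the epithelial sodium channel subunits Scnn1a, Scnn1b and Scnn1g, the sodium pump subunit Atp1b1, the chloride channel and transporter genes Cftr, Slc26a9 and Slc12a2, the phosphate transporter Slc34a2 and the water channel Aqp4. They were chosen by name, and all 9 were found among the 52636 genes listed. All 9 passed the filter on low counts, which kept 16497 genes over 18 libraries and 17433 over a set of 14 libraries described below.

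The distal lung keeps its surface liquid thin by moving sodium out of the airspace. Sodium enters through the epithelial sodium channel on the apical side and leaves through the Na,K-ATPase on the basolateral side, and water follows. Chloride moves through Cftr and related anion transporters, with Slc12a2 loading chloride into the cell, while alveolar type 2 cells also take up phosphate through Slc34a2, a gene long used as a marker of these cells.

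Total RNA was sequenced from mouse lung cells labelled alveolar type 2, the cells that make surfactant, in 6 groups of 3 libraries. All groups received LGK974, an inhibitor of the enzyme that makes Wnt proteins fit for secretion, and all had been grown for 19 days with the Wnt pathway agonist CHIR99201 (the labels' spelling). In 3 groups CHIR99201 was then replaced by a Fzd5 agonist (called FZD5 agonist here), by a Fzd6 agonist (FZD6 agonist) or by Wnt (WNT). In the other 3, it was kept as the control (CHIR), withdrawn for 24 h or withdrawn for 48 h. The treatment text gives 8 to 12 h for the modulators, and the labels do not say how long the cells given a ligand had been without CHIR99201. No genotype, strain, age or number of animals is given, and nothing states whether the 3 libraries of a group are separate cultures, so the p-values reflect library-to-library spread, which may be technical.

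The libraries held 31509607 to 52030066 counts each. The lowest counts of the members were 0 for Aqp4 and 41 for both Scnn1b and Cftr, while each of the other 6 genes had at least 173 counts in every library. Of the 18 libraries, 4 stood apart (CHIR 1, CHIR 3, FZD6 agonist 1 and 24 h withdrawal 2): their median correlation with the other libraries was 0.784 to 0.95, against 0.966 to 0.982 in the other 14. Among the type 2 markers, Sftpc, which encodes surfactant protein C, was at 91164 to 130488 CPM (counts scaled to a common library size with TMM factors) in those 4, against 36207 to 54349 CPM in the 14. Others reached lower in the 4: the lipid transporter gene Abca3 was at 185 to 1396 CPM in them, against 1124 to 1695 CPM in the 14, and the lamellar body gene Lamp3 at 93.9 to 1376 CPM, against 1081 to 1543 CPM. Each comparison was therefore given over all 18 libraries and over the 14, in which CHIR is represented by CHIR 2 alone and its spread is taken from the other groups. In both, edgeR's quasi-likelihood test was used with Benjamini-Hochberg adjustment over all genes tested and a threshold of 0.05, and a gene past it is said to be called. In such bulk samples, fewer cells of a type and less RNA per cell cannot be told apart. Below, the libraries of a group are at times said to lie above or below all those of another. The share of all genes separated in this way was not computed.

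The promoters of 4 members that the results below turn on are shown first, as reference sequence. RefSeq windows of 250 bases before to 50 after the start on GRCm38.p6 matched 6 of the 9 members, and 4 of them are printed, 5′ to 3′ along the gene. Capitals mark the GC box (GGGCGG) and the TATA box (TATAAA or TATATA) on either strand.
Scnn1g, chr7:121734229-121734528, plus strand: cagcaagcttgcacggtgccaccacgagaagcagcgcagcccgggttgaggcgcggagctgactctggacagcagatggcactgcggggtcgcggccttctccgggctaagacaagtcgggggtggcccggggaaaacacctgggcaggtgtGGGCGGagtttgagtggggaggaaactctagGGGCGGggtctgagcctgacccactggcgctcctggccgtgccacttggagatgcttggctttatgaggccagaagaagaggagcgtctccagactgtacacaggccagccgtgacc
Scnn1b, chr7:121864788-121865087, plus strand: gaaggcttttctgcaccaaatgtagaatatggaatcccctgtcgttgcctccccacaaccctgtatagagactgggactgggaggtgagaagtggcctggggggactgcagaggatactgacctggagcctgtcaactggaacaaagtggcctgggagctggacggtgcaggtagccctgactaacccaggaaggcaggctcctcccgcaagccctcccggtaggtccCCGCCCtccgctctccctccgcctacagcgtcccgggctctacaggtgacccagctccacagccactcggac
Atp1b1, chr1:164458306-164458605, minus strand: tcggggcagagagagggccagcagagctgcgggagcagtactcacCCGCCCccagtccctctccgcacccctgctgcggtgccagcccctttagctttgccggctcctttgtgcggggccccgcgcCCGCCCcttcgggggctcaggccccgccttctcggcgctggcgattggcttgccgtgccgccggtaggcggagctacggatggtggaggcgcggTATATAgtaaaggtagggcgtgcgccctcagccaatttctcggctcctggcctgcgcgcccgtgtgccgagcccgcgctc
Cftr, chr6:18170437-18170736, plus strand: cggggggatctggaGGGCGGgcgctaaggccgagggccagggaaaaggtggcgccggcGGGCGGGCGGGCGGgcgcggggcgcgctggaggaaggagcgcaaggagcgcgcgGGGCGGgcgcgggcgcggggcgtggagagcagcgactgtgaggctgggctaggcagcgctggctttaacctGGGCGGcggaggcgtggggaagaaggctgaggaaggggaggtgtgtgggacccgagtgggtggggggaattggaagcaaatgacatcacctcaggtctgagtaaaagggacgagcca
The GC box matched 2 times for Scnn1g, 1 time for Scnn1b, 2 times for Atp1b1 and 6 times for Cftr, with overlapping matches counted, and 35.7% of 32851 promoters of this length held it. Of the printed windows, only that of Atp1b1 held the TATA box, where TATATA reads the same on both strands. The windows of Slc34a2 and Slc26a9, not printed, also held it, as did 17.1% of all promoters. A TCF/LEF motif (CTTTGAT or CTTTGAA, either strand), the kind bound at Wnt target genes, was found in 0 of the 6 windows and in 8.65% of all promoters. Only these spellings were searched, so other spellings of the motif could stand in the windows. The consensus glucocorticoid response element, on either strand, was also found in 0 of the 6 and in 0.475% of all. These counts say only which letters stand in the windows.

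Scnn1g and Scnn1b, which encode the gamma and beta subunits of the sodium channel, are neighbours on chromosome 7 (GRCm38, GENCODE M21), from 121734479 to 121768475 and from 121865038 to 121918514, with 96.6 kb between them. Scnn1a, which encodes the alpha subunit, lies on chromosome 6 from 125320659 to 125344943, and Cftr lies on chromosome 6 from 18170687 to 18322768. Atp1b1 lies on the minus strand of chromosome 1 from 164437109 to 164458355, and Slc26a9 on the plus strand of chromosome 1 from 131744022 to 131771504. Slc34a2 lies on chromosome 5 from 53038081 to 53071664. Scnn1b overlaps Cog7 and Atp1b1 overlaps Nme7, each on the opposite strand, and Cftr, Slc34a2 and Aqp4 overlap provisional genes. Whether counting used strand is not given in the sources used here, so reads of such partners could not be told apart.

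The members spanned a wide range of levels. Per kilobase of exon width, the median over the 18 libraries was 2200 CPM for Slc34a2 and 540 CPM for Atp1b1, followed by 93.6 CPM for Slc26a9 and 55.3 CPM for Slc12a2. It was 41.3 CPM per kilobase for Scnn1a, 21 for Scnn1g, 7.05 for Scnn1b, 4.73 for Cftr and 0.277 for Aqp4. Slc34a2 ranked 5 among all genes by mean CPM and Atp1b1 ranked 43, while Aqp4 ranked 11605. Among the 14 libraries the highest level over the lowest was 1.46 for Slc12a2, 1.55 for Slc34a2, 2.17 for Slc26a9, 2.34 for Cftr and 2.54 for Atp1b1. The same ratio was 6.39 for Scnn1a, 9.71 for Scnn1b, 11.7 for Scnn1g and 64 for Aqp4. Over all 18 libraries it was 60.1 for Scnn1a, 47.5 for Cftr, 30.6 for Scnn1b and 29.8 for Scnn1g, against 7.61 for Slc26a9, 7.23 for Slc12a2, 5.82 for Slc34a2 and 3.01 for Atp1b1, so the place of Cftr in this order rests on the libraries apart.

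**Figure D1:**
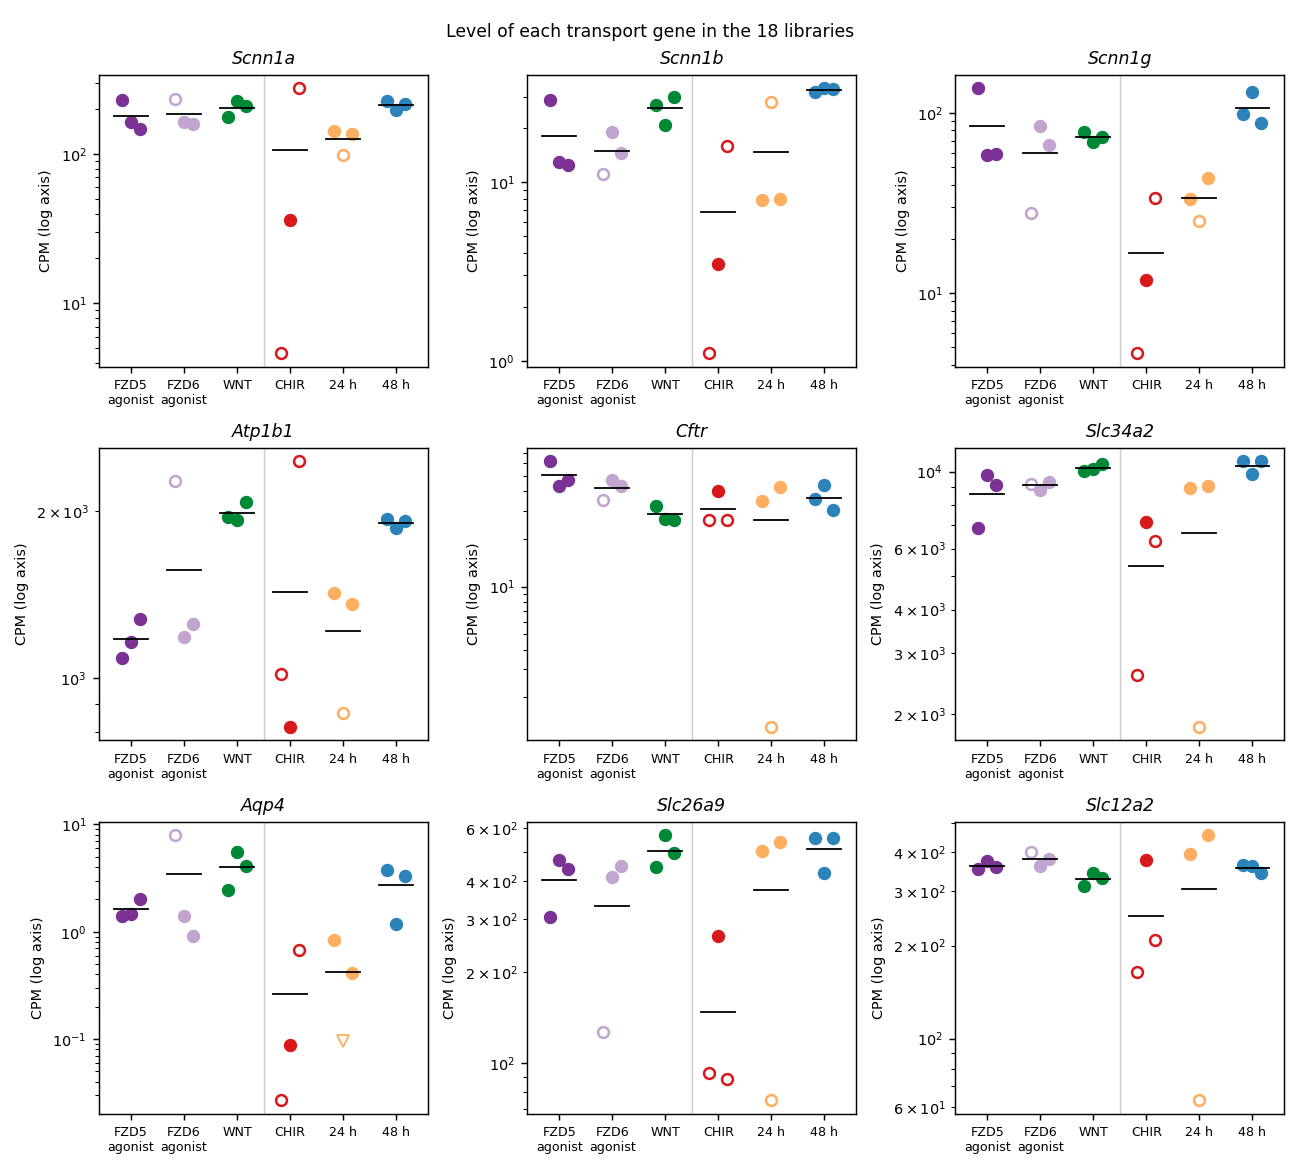
Level of each of the 9 genes in CPM (log axis) in the 18 libraries, by group; horizontal bars are group means, open symbols are the 4 libraries that stood apart and the triangle marks a library with 0 counts, drawn at its 3-count floor. The 3 sodium channel genes and Aqp4 were low in CHIR 2 and high at 48 h, Atp1b1 was lower with the FZD5 agonist than with WNT or at 48 h, and Slc12a2 varied little outside the open symbols.

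At 48 h of CHIR99201 withdrawal Scnn1g was higher in every library than with CHIR, and all 3 sodium channel genes rose where the 4 libraries apart were left out. Scnn1g had 4.63, 11.8 and 33.9 CPM with CHIR, 33.1, 25.0 and 43.7 CPM at 24 h and 99.2, 131 and 88.2 CPM at 48 h. The 48 h libraries lay above all CHIR and all 24 h libraries, while CHIR and 24 h overlapped. Scnn1b had 1.10, 3.46 and 15.8 CPM with CHIR, 7.94, 28.0 and 7.98 CPM at 24 h and 31.9, 33.6 and 32.9 CPM at 48 h. The 48 h libraries were again the highest and close to each other, and the library at 28.0 CPM was 24 h withdrawal 2, one of the 4 apart. Scnn1a had 4.63, 36.2 and 278 CPM with CHIR, 143, 98.8 and 137 CPM at 24 h and 228, 198 and 218 CPM at 48 h. Here CHIR 3 was the highest of all 18 libraries and CHIR 1 the lowest, so CHIR overlapped both withdrawal groups.

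Over 18 libraries, 1 of the 9 members was called for 48 h withdrawal against CHIR, where 2.59% of all genes tested were called. This was Scnn1g, with a log2 fold change of 2.66 (SE 0.58, edgeR adjusted p = 0.0248, higher in 3 of 3 libraries). All 9 members had a log2 fold change above 0, with a median of 1.02 against -0.037 over all genes tested. The call rested on few libraries: the adjusted p was 0.0663 without CHIR 1, 0.062 without CHIR 2, and 0.081, 0.098 and 0.0699 without 48 h withdrawal 1, 2 and 3. Without CHIR 3 it was 0.00313, with a log2 fold change of 3.67, and in a fit of these 2 groups alone, where 0.851% of genes were called and 0 members by edgeR (5 at an unadjusted p under 0.05), it was 0.124.

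Within the 14 libraries, 7 of 9 members rose at 48 h against CHIR 2, where 27.5% of all genes were called, with a median log2 fold change of 1.21 over the members against 0.005 over all genes. The sodium channel genes Scnn1a, Scnn1b and Scnn1g rose in log2 terms by 2.56 (SE 0.239; edgeR adjusted p = 1.02e-05), 3.24 (SE 0.516, adjusted p = 0.00105) and 3.16 (SE 0.589, adjusted p = 0.00391). Atp1b1, which encodes the beta subunit that carries the sodium pump to the membrane, rose by 1.21 (SE 0.101, adjusted p = 7.77e-07). Slc34a2 rose by 0.53 (SE 0.145, adjusted p = 0.0119), and Slc26a9, an epithelial chloride transporter, by 0.96 (SE 0.232, adjusted p = 0.0092). Aqp4 rose by 4.92 (SE 0.945, adjusted p = 0.00159), from counts near the floor, since CHIR 2 held 4 reads of it. Cftr and Slc12a2 had log2 fold changes of -0.16 and -0.09 and were not called. These values set 3 libraries against 1.

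The values behind those calls show how the control libraries differed among themselves. Atp1b1 had 1018, 818 and 2460 CPM with CHIR, 1426, 866 and 1360 CPM at 24 h and 1936, 1865 and 1921 CPM at 48 h. CHIR 2 was the lowest of all libraries and CHIR 3 the highest, and the 48 h libraries differed little from each other. Slc34a2 had 2601, 7157 and 6302 CPM with CHIR, 8962, 1838 and 9117 CPM at 24 h and 10693, 9821 and 10703 CPM at 48 h. Slc26a9 had 92.2, 263 and 88.3 CPM with CHIR, 505, 75.0 and 541 CPM at 24 h and 557, 428 and 557 CPM at 48 h. For Slc34a2 and Slc26a9 all 48 h libraries lay above all CHIR libraries, and 24 h withdrawal 2 was the lowest library of the 18. Aqp4, a water channel of the lung epithelium, had 0.0268, 0.0871 and 0.67 CPM with CHIR, 0.839, 0 and 0.416 CPM at 24 h and 3.76, 1.17 and 3.28 CPM at 48 h. A count of 0 in 24 h withdrawal 2 allows up to 0.0952 CPM. The 48 h libraries were above all CHIR and 24 h libraries.

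At 24 h, the calls against CHIR were fewer than at 48 h. Over 18 libraries, 0 of 9 members were called by edgeR and 0% of all genes, 1 member had an unadjusted p under 0.05 (Slc26a9), and DESeq2 and limma voom also called 0 members. Among the 14 libraries, 3 of 9 members rose against CHIR 2, where 4.5% of genes were called. They were Scnn1a, with a log2 fold change of 1.95 (SE 0.238, edgeR adjusted p = 0.00138), Atp1b1 with 0.76 (SE 0.103, adjusted p = 0.000955) and Slc26a9 with 0.99 (SE 0.243, adjusted p = 0.0448). Over 18 libraries Atp1b1 had a log2 fold change of the other sign, -0.19.

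Between 48 h and 24 h, 0 of 9 members were called over 18 libraries by edgeR, where 0.0485% of genes were, and the unadjusted p was under 0.05 for 2. DESeq2 called 0 members and limma voom with quality weights 4. Over the 14 libraries, with 2 at 24 h, 5 members rose and 1 fell, where 18% of genes were called. Scnn1b rose by a log2 fold change of 2.04 (SE 0.353, edgeR adjusted p = 0.00326) and Atp1b1 by 0.45 (SE 0.075, adjusted p = 0.000744), and both calls were kept in each of 5 fits that left out 1 more library. Scnn1a rose by 0.61 (SE 0.162, adjusted p = 0.0217), Scnn1g by 1.46 (SE 0.394, adjusted p = 0.0349) and Aqp4 by 2.13 (SE 0.527, adjusted p = 0.0133). Those 3 calls were kept in 1, 0 and 4 of the 5 fits: that of Scnn1a was lost without any of these libraries but 48 h withdrawal 2, that of Scnn1g without any of them and that of Aqp4 without 24 h withdrawal 3. Slc12a2, the sodium, potassium and chloride cotransporter, fell by 0.26 (SE 0.073, adjusted p = 0.021), kept in 3 of 5 fits and lost without 24 h withdrawal 3 or 48 h withdrawal 3. Its levels were 395 and 456 CPM in those 24 h libraries and 365, 362 and 342 CPM at 48 h, so the groups did not overlap. In 24 h withdrawal 2 it was 63.1 CPM, and with that library the log2 fold change was 0.20.

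**Figure D2:**
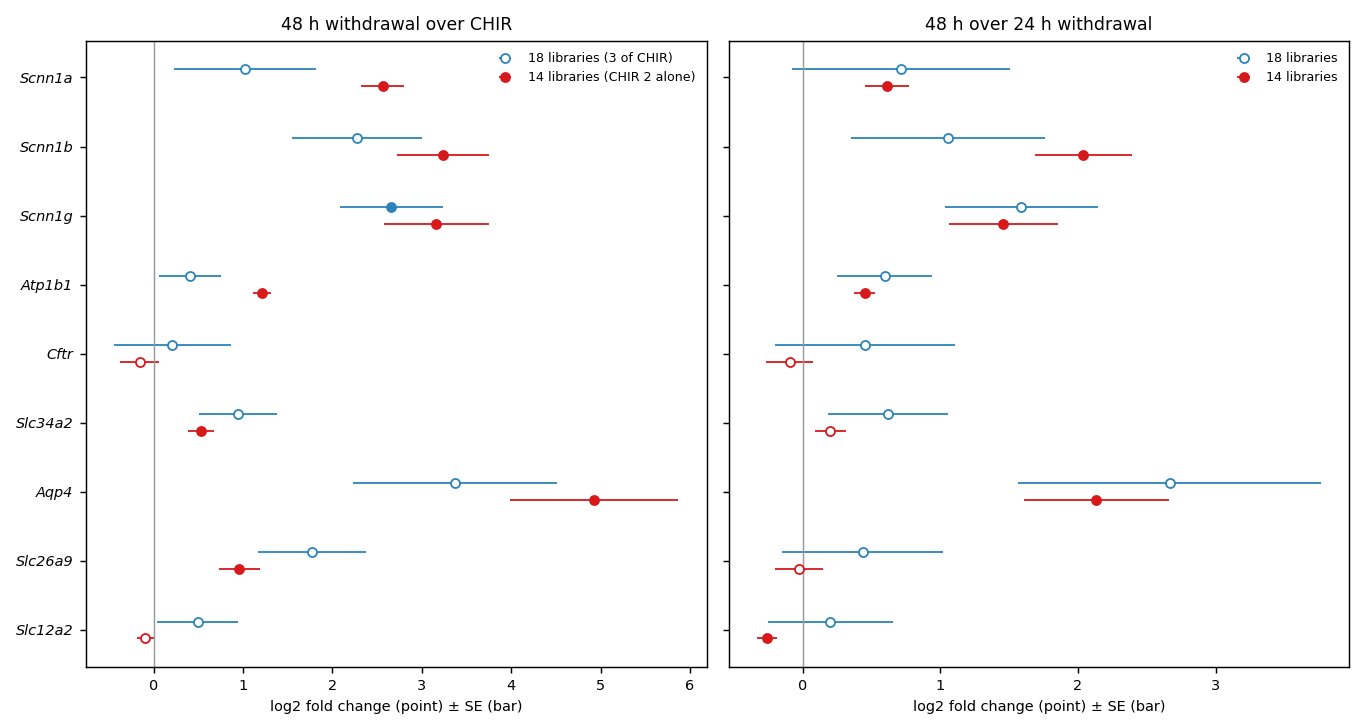
Log2 fold change (points) with SE (bars) of the 9 genes for 48 h withdrawal over CHIR and for 48 h over 24 h withdrawal, over 18 and over 14 libraries; filled points passed an edgeR adjusted p of 0.05. Over 18 libraries Scnn1g against CHIR is the only filled point, and over 14 libraries the sodium channel genes, Atp1b1 and Aqp4 lie to the right of 0 in both panels.

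The make-up of the sodium channel was compared within libraries, per exon width. Scnn1b made up the smallest share of the 3 subunit transcripts in each library except 24 h withdrawal 2, at 6.31% to 14.2% there against 26% in that library. The ratio of Scnn1a to Scnn1g was 1.1 to 3.13 in the 14 libraries, so alpha transcripts outnumbered gamma in each of them. Summed over the subunits, levels were lowest in CHIR 1 and CHIR 2 and highest with FZD5 agonist 1 and at 48 h.

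**Figure D3:**
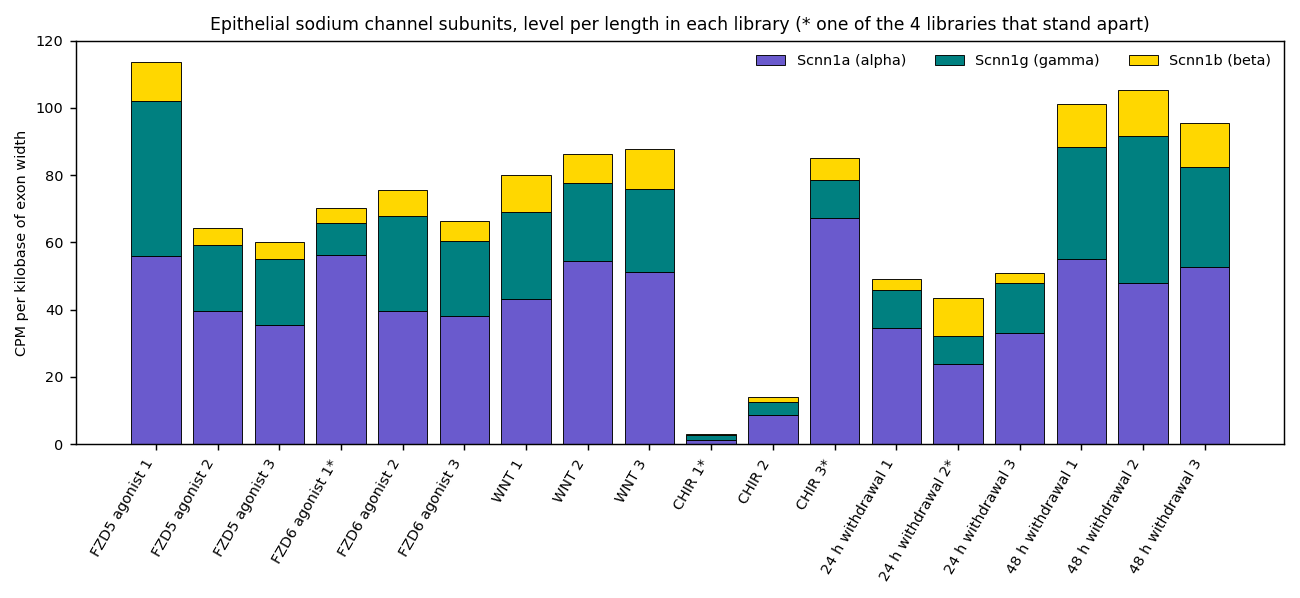
Stacked level of the 3 sodium channel subunits, in CPM per kilobase of exon width, in each library; an asterisk marks the 4 libraries that stood apart. The bars of CHIR 1 and CHIR 2 are the lowest, and CHIR 3 is as high as the WNT libraries, mostly through Scnn1a.

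The ligand groups were compared with 48 h withdrawal first. The labels do not give how long these cells had been without CHIR99201. The ligand and the time without CHIR99201 therefore cannot be told apart here, nor against 24 h or CHIR below. Over 18 libraries edgeR called 0 of 9 members for the FZD5 agonist (0% of all genes), 0 for the FZD6 agonist (0.0121%) and 0 for WNT (0%), and no unadjusted p of a member was under 0.05. DESeq2 also called 0 in each, and limma voom called 3, 3 and 0. In the fit of 14 libraries, 2 members were called for the FZD5 agonist, where 15.7% of genes were called. For the FZD6 agonist it was 1, where 12.1% were, and for WNT 0, where 0% were. The medians over the members were -0.30, -0.41 and -0.067 on the log2 scale, against 0.019, -0.005 and 0.013 over all genes.

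Atp1b1 was the member that differed most clearly. It had 1089, 1163 and 1279 CPM with the FZD5 agonist, 2271, 1186 and 1255 CPM with the FZD6 agonist, 1957, 1929 and 2076 CPM with WNT and 1936, 1865 and 1921 CPM at 48 h. All 3 FZD5 agonist libraries and FZD6 agonist 2 and 3 lay below every WNT and 48 h library, while FZD6 agonist 1, one of the 4 apart, lay above them. Against 48 h it fell by 0.68 with the FZD5 agonist (SE 0.0666, edgeR adjusted p = 8.27e-06) and by 0.64 with the FZD6 agonist (SE 0.0755, adjusted p = 5.72e-05) over the 14 libraries. The FZD5 agonist comparison holds none of the 4 libraries apart, and in a fit of those 2 groups alone, where 13% of genes were called, the value was -0.70 (SE 0.0862, adjusted p = 0.00133). With all 18 libraries it was -0.69 (SE 0.346, adjusted p = 1), where the spread is estimated with the 4 libraries included. With FZD6 agonist 1 left out of the 18, the FZD6 agonist value was -0.64, and with 1 of the others left out it was as small as -0.11.

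The agonists were next set against WNT. With all 18 libraries edgeR called 0 of 9 members for either agonist, as 0% of all genes, with 1 and 0 members at an unadjusted p under 0.05, and DESeq2 called 0 for both and limma voom 4 for both. Within the 14 libraries, 3 members were called for the FZD5 agonist, where 16.7% of genes were, and 3 for the FZD6 agonist, where 11.8% were.

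Against WNT, Atp1b1 fell by 0.74 with the FZD5 agonist (SE 0.0667, edgeR adjusted p = 4.93e-06) and by 0.70 with the FZD6 agonist (SE 0.0756, adjusted p = 4.52e-05) over the 14 libraries. Each of these Atp1b1 calls was kept in every fit that left out 1 more of the 14 libraries. The fit of the FZD5 agonist and WNT alone, where 13.1% of genes were called, gave -0.74 (adjusted p = 0.00137). That of the FZD6 agonist and WNT alone, which includes FZD6 agonist 1, called 0 members by edgeR (3 at an unadjusted p under 0.05) and 0.0592% of genes. Between WNT and 48 h the difference was 0.06, with a 95% interval of -0.07 to 0.19.

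Cftr, the channel mutated in cystic fibrosis, ran the other way. It had 61.8, 43.0 and 47.2 CPM with the FZD5 agonist, 35.4, 46.9 and 43.2 CPM with the FZD6 agonist, 32.3, 26.9 and 26.4 CPM with WNT and 35.5, 43.6 and 30.3 CPM at 48 h. Every agonist library lay above every WNT library, while the 48 h libraries overlapped both. How many of all genes separate in this way was not computed. Against WNT, Cftr rose by 0.84 with the FZD5 agonist (SE 0.154, edgeR adjusted p = 0.00241) over the 14 libraries, a call kept in 6 of 6 fits that left out 1 more library, with 0.84 (adjusted p = 0.00696) in the fit of the 2 groups alone. With the FZD6 agonist it rose by 0.67 against WNT (SE 0.169, adjusted p = 0.0216), kept in 1 of 5 and lost without FZD6 agonist 2 or 3 or WNT 2 or 3. Against 48 h it rose by 0.49 with the FZD5 agonist (SE 0.153, adjusted p = 0.0457), kept in 2 of 6 and lost without FZD5 agonist 1 or 3 or 48 h withdrawal 1 or 3. CHIR had 26.3, 40.4 and 26.5 CPM and 24 h had 34.6, 1.30 and 42.8 CPM, so these groups overlapped the others. The ratio of Atp1b1 to Cftr per exon width was 51.2, 78.6 and 78.7 with the FZD5 agonist, against 176, 208 and 228 with WNT and 159, 124 and 184 at 48 h. It was 186, 73.4 and 84.4 with the FZD6 agonist and 113, 58.9 and 270 with CHIR. CHIR 2 thus lay within the range of the FZD5 agonist. The ratio restates the opposite differences of these genes in the same libraries and is no separate evidence.

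**Figure D4:**
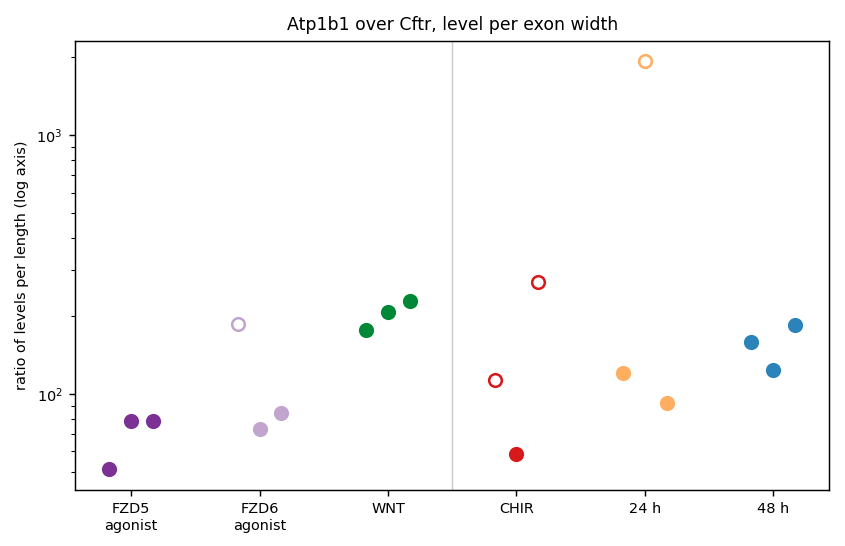
Ratio of the level per exon width of Atp1b1 to that of Cftr in each library, on a log axis; open symbols are the 4 libraries that stood apart. The FZD5 agonist libraries, at 51.2 to 78.7, lie below all WNT and 48 h libraries. CHIR 2, at 58.9, lies within their range, and FZD6 agonist 2 and 3 lie at 73.4 and 84.4.

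Aqp4 was also called against WNT. It had 1.41, 1.47 and 2.04 CPM with the FZD5 agonist, 7.99, 1.41 and 0.909 CPM with the FZD6 agonist and 2.43, 5.57 and 4.07 CPM with WNT. The FZD5 agonist libraries lay below the WNT libraries, and FZD6 agonist 1 was the highest of the 18. Over the 14 libraries Aqp4 fell by 1.29 with the FZD5 agonist (SE 0.404, edgeR adjusted p = 0.0445) and by 1.79 with the FZD6 agonist (SE 0.479, adjusted p = 0.0278), and each call was kept in 1 of the fits (of 6 and of 5) that left out 1 more library, being lost without any library of these groups except WNT 1.

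By edgeR the sodium channel genes were not called for any ligand against 48 h. Limma voom over 18 libraries did call Scnn1b against 48 h. Its log2 fold change there was -1.205 (limma voom adjusted p = 0.000491) for the FZD5 agonist and -1.006 (adjusted p = 0.00101) for the FZD6 agonist. Against WNT, limma voom called Scnn1b as well, at -0.898 (adjusted p = 0.0042) and -0.699 (adjusted p = 0.0124). Scnn1a had 231, 164 and 147 CPM with the FZD5 agonist, 233, 163 and 158 CPM with the FZD6 agonist and 178, 226 and 211 CPM with WNT. Scnn1b had 28.6, 13.0 and 12.4 CPM with the FZD5 agonist, 11.1, 19.1 and 14.6 CPM with the FZD6 agonist and 27.1, 20.9 and 29.7 CPM with WNT, all below the 31.9 to 33.6 CPM at 48 h. Its log2 fold change against 48 h over the 14 libraries was -0.86 (95% interval -1.42 to -0.29, adjusted p = 0.0743) for the FZD5 agonist, -0.95 (-1.60 to -0.31, adjusted p = 0.0945) for the FZD6 agonist and -0.34 (-0.90 to 0.22, adjusted p = 0.775) for WNT, by edgeR. Scnn1g had 138, 58.3 and 59.0 CPM with the FZD5 agonist, 27.8, 84.4 and 66.8 CPM with the FZD6 agonist and 78.0, 69.3 and 73.8 CPM with WNT. In the channel genes, FZD5 agonist 1 was well above the other FZD5 agonist libraries, so the spread in that group was wide.

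Slc34a2, Slc26a9 and Slc12a2 were not called by edgeR for any ligand against 48 h either. Slc34a2 had 6897, 9804 and 9150 CPM with the FZD5 agonist, 9184, 8872 and 9341 CPM with the FZD6 agonist and 10021, 10194 and 10532 CPM with WNT. Slc26a9 had 304, 472 and 439 CPM with the FZD5 agonist, 127, 415 and 450 CPM with the FZD6 agonist and 448, 571 and 497 CPM with WNT. Slc12a2 had 353, 374 and 360 CPM with the FZD5 agonist, 402, 361 and 380 CPM with the FZD6 agonist and 312, 343 and 331 CPM with WNT. For Slc34a2 and Slc12a2 the FZD5 agonist and WNT libraries did not overlap, but their log2 differences over the 14 libraries, -0.24 (edgeR adjusted p = 0.123) and 0.16 (adjusted p = 0.121), missed the threshold.

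The FZD5 and FZD6 agonists were also set against each other. By edgeR 0 of 9 members were called over 18 libraries (0% of all genes) and 0 over the 14 (0.00574% of genes), 0 had an unadjusted p under 0.05 in either, and DESeq2 and limma voom called 0. In the 14 libraries the 95% interval of the log2 difference was -0.19 to 0.10 for Atp1b1 and -0.16 to 0.51 for Cftr, while it ran from -0.55 to 0.91 for Scnn1g and from -0.45 to 1.45 for Aqp4. These intervals give the spread of each estimate and are not limits of detection, so larger differences could also go uncalled.

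**Figure D5:**
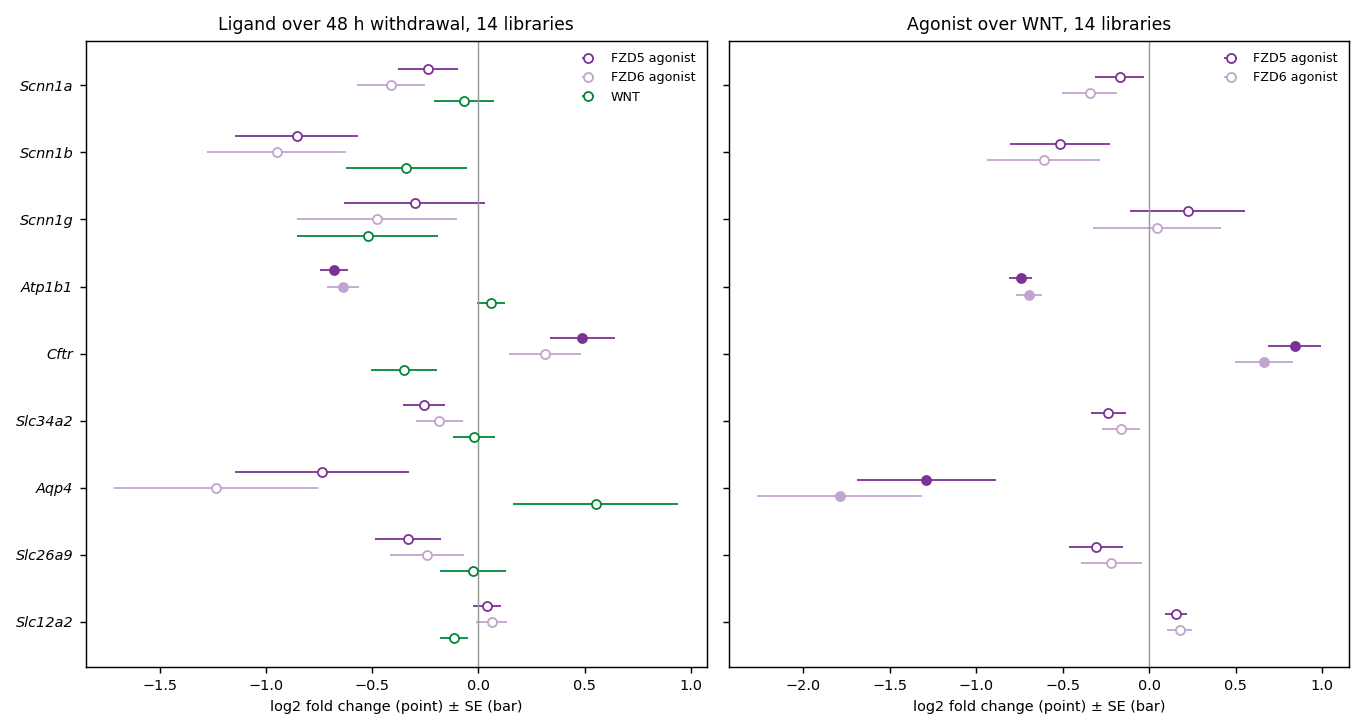
Log2 fold change (points) with SE (bars) over the 14 libraries for each ligand over 48 h withdrawal (left) and for each agonist over WNT (right); filled points passed an edgeR adjusted p of 0.05. Atp1b1 is filled on the left of 0 for both agonists in both panels, Cftr is filled on the right of 0 for the FZD5 agonist in both, and no WNT point is filled.

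The ligand groups were set against 24 h withdrawal and against CHIR as well, and these comparisons share their control libraries with those above. Against 24 h over the 14 libraries, 0 members were called by edgeR for the FZD5 agonist (4.23% of genes) and 0 for the FZD6 agonist (0.677%), although the unadjusted p was under 0.05 for 7 and 4. With WNT, 4 rose and 1 fell against 24 h, where 13.6% of genes were called. They were Scnn1a with 0.54 (SE 0.162, edgeR adjusted p = 0.0444), Scnn1b with 1.70 (SE 0.349, adjusted p = 0.0107), Atp1b1 with 0.51 (SE 0.0752, adjusted p = 0.000393), Aqp4 with 2.68 (SE 0.526, adjusted p = 0.00478) and Slc12a2 with -0.38 (SE 0.0724, adjusted p = 0.00286). Leaving out 24 h withdrawal 3 as well ended the calls of Scnn1a, Scnn1b, Aqp4 and Slc12a2. Leaving out 24 h withdrawal 1 ended those of Scnn1a and Scnn1b, and leaving out WNT 2 or WNT 3 that of Scnn1a, while that of Atp1b1 was kept in 5 of 5 fits. Over 18 libraries 0 members were called against 24 h for the 3 ligands (0.00606%, 0% and 0.0303% of genes), with 1 unadjusted p under 0.05 in each. DESeq2 called 0 for each, and limma voom 0, 0 and 5. Against CHIR 2 over the 14 libraries, 5 members rose with the FZD5 agonist, where 13.6% of genes were called. With the FZD6 agonist 5 members rose (8.48% of genes called) and with WNT 7 (26.6%). The part of the ligand was not tested, since the members called were also higher at 48 h, without a ligand, than in CHIR 2. For the FZD5 agonist these were Scnn1a (log2 fold change 2.33), Scnn1b (2.38), Scnn1g (2.86), Atp1b1 (0.53) and Aqp4 (4.19), with edgeR adjusted p between 9.76e-05 and 0.0133. For the FZD6 agonist the same 5 had 2.15, 2.28, 2.68, 0.58 and 3.69, with adjusted p between 0.000274 and 0.038. With WNT they had 2.495, 2.90, 2.64, 1.27 and 5.48, and Slc34a2 (0.51) and Slc26a9 (0.93) were called too, with adjusted p between 6.87e-07 and 0.0155. Over 18 libraries 0 were called against CHIR by edgeR (0.00606%, 0.00606% and 1.92% of genes), with 3, 2 and 4 unadjusted p under 0.05, and DESeq2 called 1, 1 and 3 and limma voom 0, 0 and 3.

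Other genes of the same pathways were read from 7 lists with 93 genes, of which 69 were tested over 18 libraries and 72 over the 14. For 48 h against CHIR over 18 libraries, 2 of 69 rose and 1 fell, a share of 4.35% against 2.59% of all genes. Car2, the cytosolic carbonic anhydrase that supplies bicarbonate and protons, had a log2 fold change of -2.68 (SE 0.328, edgeR adjusted p = 0.00257). It had 280, 167 and 121 CPM with CHIR, 117, 52.6 and 103 CPM at 24 h and 26.4, 34.6 and 29.3 CPM at 48 h, so the 48 h libraries lay below all others of the withdrawal series. Slc4a5, a sodium bicarbonate cotransporter, rose by 3.56 (SE 0.632, adjusted p = 0.0101), and Kcne2, a potassium channel beta subunit, rose by 1.53 (adjusted p = 0.0132).

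Over the 14 libraries, 11 of 17 regulators of the sodium channel rose and 1 fell at 48 h against CHIR 2, where 27.5% of all genes were called, with a list median of 0.99 against 0.005. Nedd4l, a ubiquitin ligase that removes the channel from the membrane, rose by 1.17 (edgeR adjusted p = 1.23e-06), while the channel-cleaving proteases Tmprss4 and Furin rose by 1.14 (adjusted p = 1.22e-05) and 1.06 (adjusted p = 1.09e-05). These calls rest on CHIR 2 as the only CHIR library: over 18 libraries 0 of 17 were called by edgeR (5 with an unadjusted p under 0.05, 3 by DESeq2 and 2 by limma voom), with a list median of 0.328 against -0.037. Tmprss4 was at 250 CPM in CHIR 3, above the 130 to 160 CPM at 48 h. The list holds genes that raise and genes that lower channel activity. Of 7 potassium channel genes tested, 3 rose, among them Kcnj15 by 1.56 (adjusted p = 7.4e-07). Of 8 sodium pump and FXYD genes, 1 rose, Fxyd6 by 1.03 (adjusted p = 0.0191) against CHIR 2 alone. Over 18 libraries Fxyd6 lay the other way, with a mean of 2.99 CPM at 48 h, against 10.8 CPM with CHIR, where CHIR 3 had 29.5 CPM.

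With the FZD5 agonist against 48 h over the 14 libraries, 4 of the 72 listed genes rose and 16 fell, a share of 27.8% against 15.7% of all genes. Tmprss4 fell by 0.90 (edgeR adjusted p = 8.08e-06) and Furin by 0.49 (adjusted p = 0.000647), among 6 of 17 channel regulators that fell and 1 that rose. Kcnj15 fell by 0.71 (adjusted p = 4.2e-05), Kcnk5 by 0.55 (adjusted p = 0.00112) and the kinase gene Wnk4, which regulates chloride cotransport, by 0.50 (adjusted p = 0.000736). Car2 rose by 1.70 (adjusted p = 5.61e-05), with 101, 93.8 and 95.1 CPM with the FZD5 agonist, 145, 121 and 113 CPM with the FZD6 agonist, 42.5, 25.5 and 28.2 CPM with WNT and 26.4, 34.6 and 29.3 CPM at 48 h. The agonist libraries lay above all WNT and 48 h libraries, also with the library that stood apart. At 24 h Car2 had 117, 52.6 and 103 CPM, a range that overlapped both agonists. With the FZD6 agonist, 4 of 72 rose and 11 fell (20.8% against 12.1% of all genes), Tmprss4 by 0.90 (adjusted p = 3.42e-05) among those that fell, and Car2 rose by 1.97 (adjusted p = 4.22e-05). The Tmprss4 value leaves out FZD6 agonist 1, which had 219 CPM, above all 48 h libraries, and with it the mean was 126 ± 80.6 CPM with the FZD6 agonist, against 150 ± 17.2 CPM at 48 h (SD, n = 3 each). Over 18 libraries 0 of 69 were called by edgeR for either agonist, with an unadjusted p under 0.05 for 2 with the FZD5 agonist and 5 with the FZD6 agonist, while DESeq2 called 1 for each and limma voom 21 and 19. With WNT, 0 of 72 were called by edgeR over the 14 libraries and 0 of 69 over the 18, where 0 genes were called at all, and over the 18 libraries 0 of the listed genes had an unadjusted p under 0.05 and DESeq2 and limma voom called 0.

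The summed levels of an airway marker list, mostly Cyp2f2 in the 14 libraries, and of alveolar type 1 markers moved with some of these genes. The summed level of 9 club and airway secretory markers was 359, 141 and 158 CPM with the FZD5 agonist, 1033, 214 and 156 CPM with the FZD6 agonist and 504, 516 and 561 CPM with WNT. It was 45.5, 46.5 and 907 CPM with CHIR, 126, 608 and 152 CPM at 24 h and 592, 663 and 528 CPM at 48 h. In the 14 libraries the sum was mostly Cyp2f2, while the club cell gene Scgb1a1 was at 0.0871 to 0.959 CPM and Bpifa1 at or below 0.112 CPM. In the 4 libraries apart these reached 80 and 116 CPM. Atp1b1 and Scnn1b, like this sum, were higher with WNT and at 48 h than in CHIR 2 and the 24 h libraries 1 and 3, and the part of these markers in the results was not tested. The summed level of 8 alveolar type 1 markers was 7720, 5647 and 6082 CPM with the FZD5 agonist, 7556, 6325 and 6463 CPM with the FZD6 agonist and 7738, 7140 and 7417 CPM with WNT. It was 3958, 3293 and 7223 CPM with CHIR, 6089, 8495 and 5282 CPM at 24 h and 7709, 8425 and 7394 CPM at 48 h. In the 14 libraries this sum, like Scnn1a and Scnn1b, was lowest in CHIR 2, next lowest on average at 24 h and highest on average at 48 h. Much of it was the water channel gene Aqp5, at 2547 to 4463 CPM there, and Ager, at 423 to 2992 CPM. Pdpn, Cav1 and Rtkn2 reached 15.1, 63.5 and 22.5 CPM. In 24 h withdrawal 2, which had the highest sum of the 18 libraries, 2 of the 8 markers were at 0. The part of this sum in those results was not tested. Markers of endothelial and mesenchymal cells such as Cdh5, Kdr and Col3a1 were at 0, while Col1a1 reached 0.44 CPM, Pecam1 0.121 CPM and Dcn 0.078 CPM. Ptprc, the pan-leukocyte gene, was at or below 0.0738 CPM, and Cd68, a macrophage marker, was at 4.44 to 13.8 CPM in the 14 libraries and 0.0635 to 9.47 CPM in the 4. Lyz2, which type 2 cells also express, was at 154 to 2033 CPM. The sum of 6 ciliated cell markers was 1.81 to 23.2 CPM and that of 4 basal cell markers 0 to 12.6 CPM.

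In the order of group means over the 14 libraries, CHIR 2 was the lowest for 7 members, and 48 h was the highest for Scnn1a, Scnn1b, Scnn1g and Slc34a2. For Scnn1a and Scnn1b the order ran 48 h, WNT, FZD5 agonist, FZD6 agonist, 24 h and CHIR. Of these neighbours, the FZD6 agonist and 24 h, and 24 h and CHIR, did not overlap. Nor did 48 h and WNT for Scnn1b, and the others overlapped. With 2 libraries of the FZD6 agonist, 2 at 24 h and 1 of CHIR, such separation comes easily, and its share over all genes was not computed. Over 18 libraries 24 h and CHIR overlapped for both genes, and the FZD6 agonist and 24 h overlapped for Scnn1b. For Scnn1g the FZD5 agonist, FZD6 agonist and WNT stood next to each other and overlapped. For Atp1b1 WNT and 48 h stood first and overlapped, followed without overlap by 24 h and then by the overlapping FZD6 and FZD5 agonists. Over 18 libraries its order differed and all 5 neighbouring pairs overlapped. For Cftr the FZD5 agonist stood first and WNT last, and 4 of the 5 neighbouring pairs overlapped. The highest group mean over the lowest was 5.94 for Scnn1a, 9.48 for Scnn1b, 8.98 for Scnn1g, 2.43 for Atp1b1 and 1.77 for Cftr, and 1.29 for Slc12a2. Over 18 libraries it was 2.03 for Scnn1a, 4.83 for Scnn1b, 6.31 for Scnn1g, 1.69 for Atp1b1, 1.93 for Cftr and 1.52 for Slc12a2, and the FZD5 agonist was then the lowest group for Atp1b1.

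The genes whose pattern over the 6 group means was most like each member's were found by the root mean square difference of centred log2 CPM, among 9963 genes over 18 libraries (9964 for Aqp4). Nearest to Scnn1a were Mir6236 (0.104) and Sik1 (0.111), to Scnn1b Synpo (0.148) and Fbxo32 (0.2), and to Scnn1g Bmf (0.102) and Fbxo32 (0.118). Nearest to Atp1b1 were Slc22a18 (0.0392) and Gstt3 (0.0534), to Cftr Kif24 (0.0629) and Ptprg (0.106), and to Slc26a9 Slc7a7 (0.058) and Ddah2 (0.0962). Slc34a2 lay nearest to Tgfb1 (0.027), Slc12a2 to Tubgcp6 (0.0248) and Aqp4 to Itgb3 (0.437). Many genes were about as near to some members: 1330 lay within 0.2 of Slc12a2, 461 of Slc34a2 and 265 of Atp1b1. Within 0.2 lay 44 genes for Slc26a9, 27 for Cftr, 6 for Scnn1a, 5 for Scnn1g, 2 for Scnn1b and 0 for Aqp4. With the 14 libraries other genes were nearest, for example Lrrk2 (0.0584) and Trpv6 (0.0598) to Atp1b1, so the likeness depended on the libraries used.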

How the data were processed

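Per the labels' protocols, RNA was isolated with a column kit and 0.1 µg entered a stranded total RNA library preparation. The deposited counts are whole reads per gene, not normalised by the authors; the deposited RPKM values and gene width stand beside them. The submitters' processing notes name GSNAP and GRCm38; for versions, annotation and strand setting the entry is "not given in the sources used here". RPKM were used only to recover the authors' library total, of which 11.7% to 15.5% lay outside gene counts in 17 libraries and 31.3% in 24 h withdrawal 2. GENCODE M21 gave symbols to 52403 of 52636 identifiers (99.6%).

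Libraries were grouped by treatment label. Genes were filtered with filterByExpr, scaled by TMM and tested with edgeR 4.0.16 (robust quasi-likelihood, R 4.3.3) in 1 fit of 18 libraries; 36139 genes were removed. SE is the log2 fold change over the square root of F, and 95% intervals are 1.96 SE on either side. Alternatives were the fit without the 4 libraries apart (a median correlation limit chosen on these data), fits of 2 groups, DESeq2 1.42.0, limma 3.58.1 voom with quality weights, other scaling and filters, a replicate block and leaving out each library. Leaving out each of the 14 libraries was added after seeing the data. The members, gene lists and tests were chosen with earlier results of these data known. All members were named; fold changes are given for member and comparison pairs called over 18 or 14 libraries and for others only to show values, and of the pathway lists at most 4 called genes per list, those with the smallest p. Within groups, each of 18 pairs of libraries differed beyond sampling noise, with chi-square of 7.08 to 1120 per degree of freedom, and each library counted as 1 sample. The floor is 3 counts per library and covers counting error only. The code was tested on simulated data.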

Additional observations from a re-analysis of the deposited data

How the results depend on the processing

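The number of members called moved by over 1.5 times under the settings that follow. Without the 4 libraries apart, the number was 3 for 24 h against CHIR, 7 for 48 h against CHIR, 6 for 48 h against 24 h, 2, 1 and 0 for the FZD5 agonist, FZD6 agonist and WNT against 48 h, 5 for WNT against 24 h, 3 and 3 for the agonists against WNT, and 5, 5 and 7 for the 3 ligands against CHIR. With limma voom it was 4 for 48 h against CHIR, 4 for 48 h against 24 h, 3 and 3 for the agonists against 48 h, 5 for WNT against 24 h, 4 and 4 for the agonists against WNT and 3 for WNT against CHIR. With DESeq2 it was 4 for 48 h against CHIR and 1, 1 and 3 for the ligands against CHIR. In fits of 2 groups alone it was 0 for 48 h against CHIR, 1 for the FZD5 agonist against 48 h and 3 for it against WNT. Leaving out 1 library, counts ran from 0 to 4 for 48 h and for WNT against CHIR, 0 to 2 for the FZD5 agonist and 0 to 1 for the FZD6 agonist against CHIR, and stayed at 0 in the other 11 comparisons. The log2 fold change turned sign for Atp1b1 at 24 h against CHIR (0.36 with voom, 0.76 over the 14, -0.46 to 0.41 leaving out 1), with the FZD5 agonist against CHIR (0.16, 0.53, -0.56 to 0.32) and with the FZD6 agonist against CHIR (-0.24 to 0.73 leaving out 1). It did so for Scnn1a at 24 h against CHIR (-0.25 to 2.65 leaving out 1), Aqp4 with the FZD6 agonist against WNT (-1.78 to 0.25, 1 of the 14 -2.14 to -1.49) and Slc12a2 at 48 h (voom -0.24, the 14 -0.26, leaving out 1 -0.27 to 0.62, 1 of the 14 -0.36 to -0.15) and with WNT (-0.36, -0.38, -0.40 to 0.49, -0.48 to -0.27) against 24 h. The cause was not tested. Over all 18 libraries no pairing by replicate number was seen. Deviations of same-numbered libraries correlated by -0.521 to 0.466, over 0.1 in 4 of 45 pairs. Of the 18 libraries, 0 correlated best with their own number. The 4 libraries apart were included, and pairing among the 14 was not tested. With the replicate number as a block, edgeR called 1 member for 48 h against CHIR (Scnn1g, adjusted p = 0.0439) and 0 elsewhere. Aqp4 came near or below the floor of 3 counts, with 0 counts in 24 h withdrawal 2, 1 in CHIR 1 and 4 in CHIR 2. The lowest count of Scnn1b and of Cftr was 41.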
